A study of Mus musculus with 27 samples.

Results

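Immunoglobulin variable (V) genes supply the antigen-binding ends of antibodies, and 2 of them, Ighv11-2 of the heavy chain and Iglv1 of the lambda light chain, had 50 or more counts in total over 27 libraries of mouse ovary RNA. The set was chosen by that total: rows whose GENCODE M21 symbol starts with Ighv, Igkv or Iglv and whose biotype is IG_V_gene, kept at a sum of at least 50 counts. The count table had 51789 rows, 216 of them V genes by this rule before the count minimum. Of these 216, 70 had at least 1 count, which were 25 of 113 heavy chain (Ighv), 42 of 100 kappa (Igkv) and 3 of 3 lambda (Iglv) genes. No kappa gene reached the minimum, so the values below describe a pair of V genes rather than a repertoire, and the other V genes are given as their surroundings.

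The ovaries came from 2 experiments. In experiment 1, 5 mice were young, 4 were aged, both untreated, and 4 more aged mice received TRi-1, which inhibits thioredoxin reductase 1. In experiment 2, 5 young and 5 aged mice were untreated and 4 aged mice received auranofin, a gold drug that acts on the same enzymes. The labels give no strain, genotype, age in months, dose or length of treatment, and they name a replicate number for each library, taken here as a separate mouse.

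In a developing B cell, a V gene is joined by DNA recombination to a J segment, and in the heavy chain also to a D segment, and the joined exon is spliced to the exons of a constant region gene. A B cell and its clonal descendants, including the plasma cells that secrete antibody, therefore carry 1 productive heavy chain V gene and usually 1 light chain V gene, while all cells of one isotype share the constant region gene. In the mouse, Ighv11 genes paired with the kappa gene Igkv14-126 are known from B-1a cells whose antibodies bind phosphatidylcholine, and Iglv1 is joined mainly to Iglj1 and Iglc1. The libraries were made with a QuantSeq kit, whose reads start close to the polyA tail, whereas the V exon lies near the 5′ end of a mature immunoglobulin mRNA. The germline V gene rows counted here thus sit far from the tail of the spliced mRNA, and the kind of transcript their reads came from was not tested.

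Both members have near-identical relatives that may share reads with them, and the sequences are printed to show how little separates each pair. They are stretches of 300 bases of the second exon, which encodes most of the V domain, from the GENCODE M21 transcripts on GRCm38, written 5′ to 3′ along the transcript, with capitals at the bases that differ from the other gene of the pair or have no partner in the alignment. Iglv1 (ENSMUSG00000076934) lies on the minus strand of chromosome 16 from 19085017 to 19085500, with the printed stretch at chr16:19085022-19085321, and the Iglv2 stretch is at chr16:19260403-19260702 on the same strand. The last exons of both aligned with 294 of 302 bases alike (97.4%), and the longest identical run was 104 bases.
Iglv1: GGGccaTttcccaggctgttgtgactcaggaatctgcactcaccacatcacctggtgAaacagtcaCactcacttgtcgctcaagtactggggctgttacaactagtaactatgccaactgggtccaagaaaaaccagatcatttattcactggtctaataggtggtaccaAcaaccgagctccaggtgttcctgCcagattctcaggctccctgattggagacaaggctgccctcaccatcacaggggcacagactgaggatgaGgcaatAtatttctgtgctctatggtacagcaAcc
Iglv2: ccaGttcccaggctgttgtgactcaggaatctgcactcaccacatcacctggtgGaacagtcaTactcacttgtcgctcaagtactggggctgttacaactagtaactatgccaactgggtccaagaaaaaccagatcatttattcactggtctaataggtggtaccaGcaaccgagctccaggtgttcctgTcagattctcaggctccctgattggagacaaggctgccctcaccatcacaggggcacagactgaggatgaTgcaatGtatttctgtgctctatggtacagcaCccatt
Ighv11-2 (ENSMUSG00000096108) lies on the minus strand of chromosome 12 from 114048241 to 114048812, with the printed stretch at chr12:114048248-114048547, and the Ighv11-1 stretch is at chr12:113981886-113982185 on the same strand. Their last exons were alike at 303 of 307 bases (98.7%), with an identical run of 162 bases.
Ighv11-2: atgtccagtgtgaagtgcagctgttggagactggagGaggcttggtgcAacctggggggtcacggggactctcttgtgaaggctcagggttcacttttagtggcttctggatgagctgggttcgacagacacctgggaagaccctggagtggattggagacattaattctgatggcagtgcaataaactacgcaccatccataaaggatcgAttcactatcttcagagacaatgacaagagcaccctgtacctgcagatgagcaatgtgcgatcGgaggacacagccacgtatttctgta
Ighv11-1: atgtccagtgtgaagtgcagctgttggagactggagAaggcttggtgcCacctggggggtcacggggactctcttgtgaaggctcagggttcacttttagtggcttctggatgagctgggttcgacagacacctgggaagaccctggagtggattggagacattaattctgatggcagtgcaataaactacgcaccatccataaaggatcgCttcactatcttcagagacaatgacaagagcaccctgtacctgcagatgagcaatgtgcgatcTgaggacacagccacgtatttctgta
The files do not say how reads that match both genes of a pair were counted, so the split between Iglv1 and Iglv2, and between Ighv11-2 and Ighv11-1, is uncertain. Iglv2 had 26 counts in all and Ighv11-1 had 18.

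Each member has 2 exons in the annotation. The Iglv1 transcript is 391 nucleotides long, with 351 coding, and that of Ighv11-2 is 461 nucleotides, with 353 coding. The span of Iglv1 overlaps that of 1 other annotated gene, 2010309G21Rik, which had 5 counts in all. No annotated gene overlaps Ighv11-2. The gene Iglc1, which encodes the lambda 1 constant region, lies 22945 bases from Iglv1. The octamer of immunoglobulin promoters, searched as ATGCAAAT and on the other strand as ATTTGCAT, was found in 2 of the 216 V transcripts (0.9%), and Ighv11-2 was one of them, in its annotated 5′ end. That match describes the annotated transcripts, whose median length over the V genes is 353 nucleotides, and no match says only that these letters are not in them.

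The total of Ighv11-2 was 226 counts and that of Iglv1 was 178, or 490.2 and 455.2 counts per 1000 bases of transcript, so the pair had similar totals per length. Just below the minimum lay Igkv3-2, a kappa gene with 48 counts, and the heavy chain gene Ighv9-1 with 38 counts. The members held 404 of the 1062 V gene counts (38.0%). Over the same libraries, constant region genes held 2001499 counts, which gives 0.0531 V counts per 100 constant region counts. The T cell receptor V genes, counted as a group, gave 1.24 per 100 T cell receptor constant region counts (269 and 21685 counts). Immunoglobulin J segments had 1 count, D segments 0 and V pseudogenes 24.

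Library totals ran from 6460903 to 14814381 counts, and levels are given as CPM, counts per 1000000 of the library total after scaling by the trimmed mean of M-values (TMM). All 10 ovary markers had counts, with summed levels from 30.19 to 2117.2 CPM per library. Hepatocyte markers were highest in aged replicate 3 of experiment 1, at 1407.4 CPM. The other 3 aged libraries of that experiment had 0.862 to 166 CPM. Such markers also ran from 132.3 to 379.3 CPM in the young and from 7.81 to 337.5 CPM in the TRi-1 libraries of experiment 1. In experiment 2 the highest value was 26.0 CPM, in a young library. In bulk tissue, fewer cells of a type and less RNA per cell cannot be told apart. Intervals and limits from counts cover counting error only, and the labels name no molecular identifiers.

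Iglv1 counts were spread over many aged libraries. In experiment 1 it had 0 counts in each of the 5 young libraries and 6, 6, 13 and 18 counts in aged replicates 1 to 4. The 4 libraries of aged mice given TRi-1 had 30, 17, 10 and 11 counts. All 8 aged libraries of experiment 1, treated or not, were thus above all 5 young ones.

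In experiment 2, Iglv1 had 3 counts in young replicate 4 and 0 in the other 4 young libraries, and 6, 8, 30, 0 and 10 counts in aged replicates 1 to 5. The auranofin libraries had 0, 9, 1 and 0 counts. Aged replicate 4, at 0, overlapped the young libraries, and so did 3 of the 4 auranofin libraries, with 0 or 1 count. Over both experiments, Iglv1 was seen in 15 of 27 libraries, which were 14 of the 17 aged libraries, treated or not, and 1 of the 10 young ones.

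The mean level of Iglv1 was 1.73 ± 1.02 CPM (SD, n = 4) in TRi-1 ovaries, 1.02 ± 0.418 (SD, n = 4) in aged ovaries of experiment 1 and 0.886 ± 0.979 (SD, n = 5) in aged ovaries of experiment 2. It was 0.166 ± 0.276 CPM (SD, n = 4) in auranofin ovaries, 0.0583 ± 0.130 (SD, n = 5) in young ovaries of experiment 2 and 0 in the 5 young ovaries of experiment 1. In this order each group overlapped the next, so no neighbours in the order were separated. The order between experiments was not tested.

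**Figure D1:**
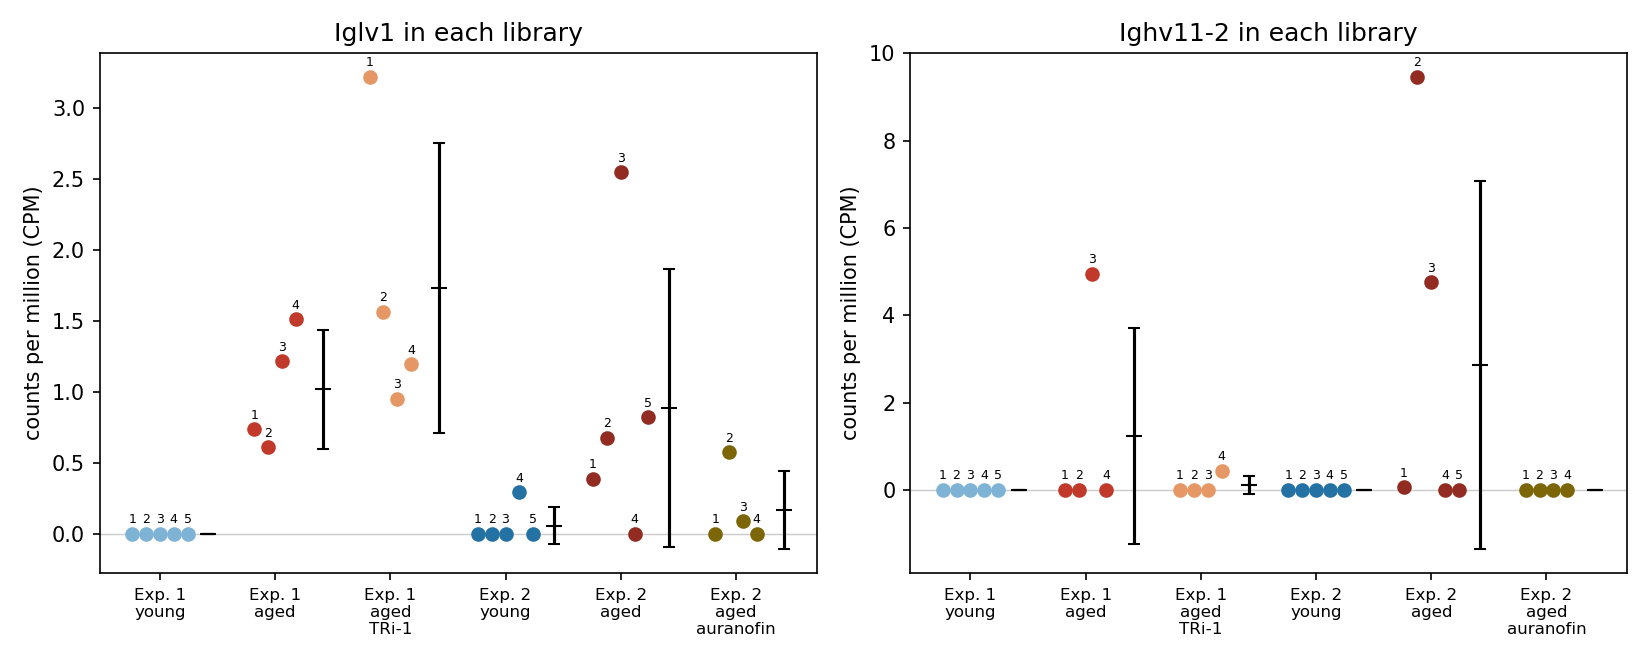
Level of Iglv1 (left) and Ighv11-2 (right) in CPM in each of the 27 libraries, as points numbered by replicate, with the group mean and SD as a black bar to the right. Iglv1 was above 0 in all 8 aged or TRi-1 libraries of experiment 1, while Ighv11-2 was high in 3 libraries, at 4.96, 9.47 and 4.75 CPM.

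Ighv11-2 counts were held by few libraries. Aged replicate 3 of experiment 1 had 53 counts and the other 3 aged libraries had 0. In experiment 2, aged replicate 2 had 112 counts, replicate 3 had 56, replicate 1 had 1, and replicates 4 and 5 had 0. One TRi-1 library, replicate 4, had 4 counts, and the other TRi-1 libraries, all 4 auranofin libraries and all 10 young libraries had 0. The 3 highest libraries thus held 221 of the 226 counts (97.8%), and 5 of 27 libraries had any.

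As levels, these 3 libraries stood at 4.96, 9.47 and 4.75 CPM. The group means were 1.24 ± 2.48 CPM (SD, n = 4) in aged ovaries of experiment 1 and 2.86 ± 4.23 (SD, n = 5) in those of experiment 2. Each SD exceeded its mean. The TRi-1 mean was 0.109 ± 0.217 CPM (SD, n = 4). Without aged replicate 3, the library with the highest hepatocyte markers, the aged mean of experiment 1 was 0 CPM. The aged mean of experiment 2 fell from 2.86 to 1.204 CPM without replicate 2.

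The gene next to Ighv11-2 in sequence, and the light chain gene known to pair with it, were looked up after their values were seen. Ighv11-1 had 15 counts in aged replicate 2 and 3 counts in aged replicate 3 of experiment 2, and 0 in all other libraries. Igkv14-126 had 6 counts in aged replicate 3 of experiment 1 and 5 counts in aged replicate 2 of experiment 2, and 0 elsewhere. All 4 of these values fell in the 3 libraries with high Ighv11-2. Since reads can be shared between Ighv11-2 and Ighv11-1, their counts are not independent, and genes picked in this way were not tested.

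The other lambda genes had lower totals. Iglv3 had 36 counts over 9 libraries, of which 6 were aged untreated and 3 treated. Iglv2 had 26 counts over 4 libraries, and 14 of them were in aged replicate 4 of experiment 2, the aged library in which Iglv1 had 0. Iglv3 and Iglv2 had no count in a young library.

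**Figure D2:**
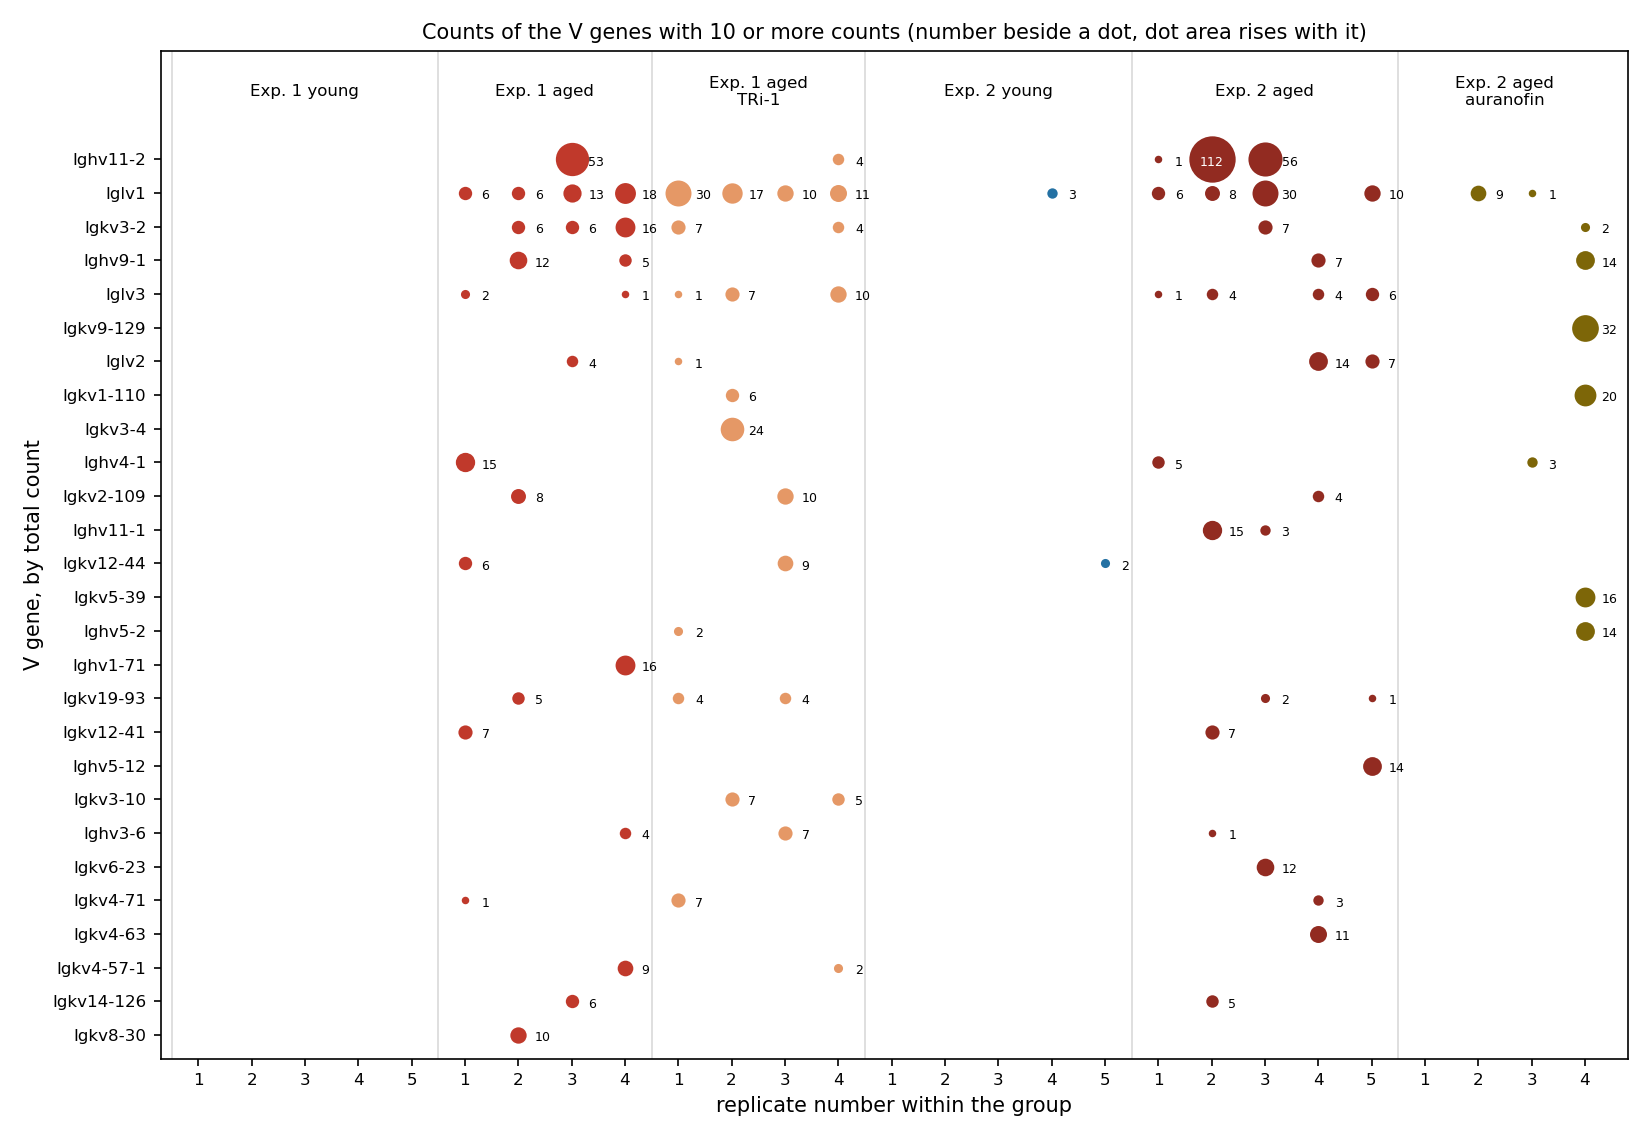
Counts of the 27 V genes with 10 or more counts, in rows by total, in each library, in columns by group and replicate; dot area rises with the count, which is printed beside or on the dot, and no dot means 0. Ighv11-2 shows 3 large dots, Iglv1 a row of small dots across the aged libraries, and young libraries are nearly empty.

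Of the 27 V genes with 10 or more counts, 8 were seen in 1 library and 5 in 5 or more libraries. Igkv9-129, a kappa gene below the minimum, had all of its 32 counts in auranofin replicate 4, and Igkv3-4 all of its 24 counts in TRi-1 replicate 2. Igkv3-2, the gene nearest to the minimum, had counts in 7 libraries, and Ighv9-1 in 4. Only 2 of the 27 genes, Iglv1 and Igkv12-44, had a count in a young library. Taking all V genes, young libraries had 22 counts in all beside 16934 constant region counts.

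A leading V gene was described in the 3 libraries with at least 100 V counts. The leading gene's own counts go into that total, and without them each library would fall short of it. The choice thus favours a high share, and the intervals do not allow for that. Aged replicate 3 of experiment 1, with 53 of 89 V counts on Ighv11-2, was left out by the cut. Ighv11-2 led in aged replicate 2 of experiment 2 with 112 of 169 V counts, a share of 66.3% (95% exact binomial interval 58.6 to 73.4). It also led in aged replicate 3 of that experiment, with 56 of 120 (46.7%, interval 37.5 to 56.0). In auranofin replicate 4 the leading gene was Igkv9-129, with 32 of 102 (31.4%, interval 22.6 to 41.3), and both members had 0 counts there. That library had the most constant region counts of all, 312968.

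The members were also set against a constant region gene each can be spliced to, as a value relative to the immunoglobulin RNA of the same library. Ighm, the constant region of IgM, was used for Ighv11-2 and Iglc1 for Iglv1. Ighv11-2 gave 2.55 counts per 1000 Ighm counts (95% Poisson interval 1.91 to 3.33) in aged replicate 3 of experiment 1. It gave 3.67 (interval 3.02 to 4.41) in aged replicate 2 and 2.28 (interval 1.72 to 2.96) in aged replicate 3 of experiment 2. These 3 values were above the limits set by the other aged libraries of both experiments, where 0 counts allowed at most 0.110 to 0.324 per 1000 Ighm counts and the library with 1 count had an upper bound of 0.240.

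In TRi-1 ovaries, Ighv11-2 gave 0.375 per 1000 Ighm counts (interval 0.102 to 0.961) in replicate 4, and 0 counts in the others allowed at most 0.0868 to 0.186. In auranofin ovaries the limits were 1.02 and 0.970 in replicates 1 and 3, which had few Ighm counts, and 0.194 and 0.129 in replicates 2 and 4. All TRi-1 and auranofin values or limits lay below the 3 high aged values. The Ighm level was 1946.1, 2581.4 and 2083.3 CPM in the 3 high libraries and ran from 1139.2 to 2297.0 CPM in the other 6 untreated aged libraries, so 1 of the 3 lay above all of these.

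Iglv1 gave 3.45, 7.76, 4.63 and 12.9 counts per 1000 Iglc1 counts in aged replicates 1 to 4 of experiment 1, and 10.4, 3.45, 5.72 and 23.7 in the TRi-1 libraries. The highest, 23.7 in TRi-1 replicate 4, rested on 11 counts over 465 Iglc1 counts (interval 11.8 to 42.3). In experiment 2 the aged libraries with a count gave 0.894, 2.14, 9.52 and 2.92 in replicates 1, 2, 3 and 5, and replicate 4 allowed at most 2.06. The auranofin libraries with a count gave 4.74 and 1.90 in replicates 2 and 3, and those without allowed at most 1.63 and 1.12. All 4 groups overlapped.

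**Figure D3:**
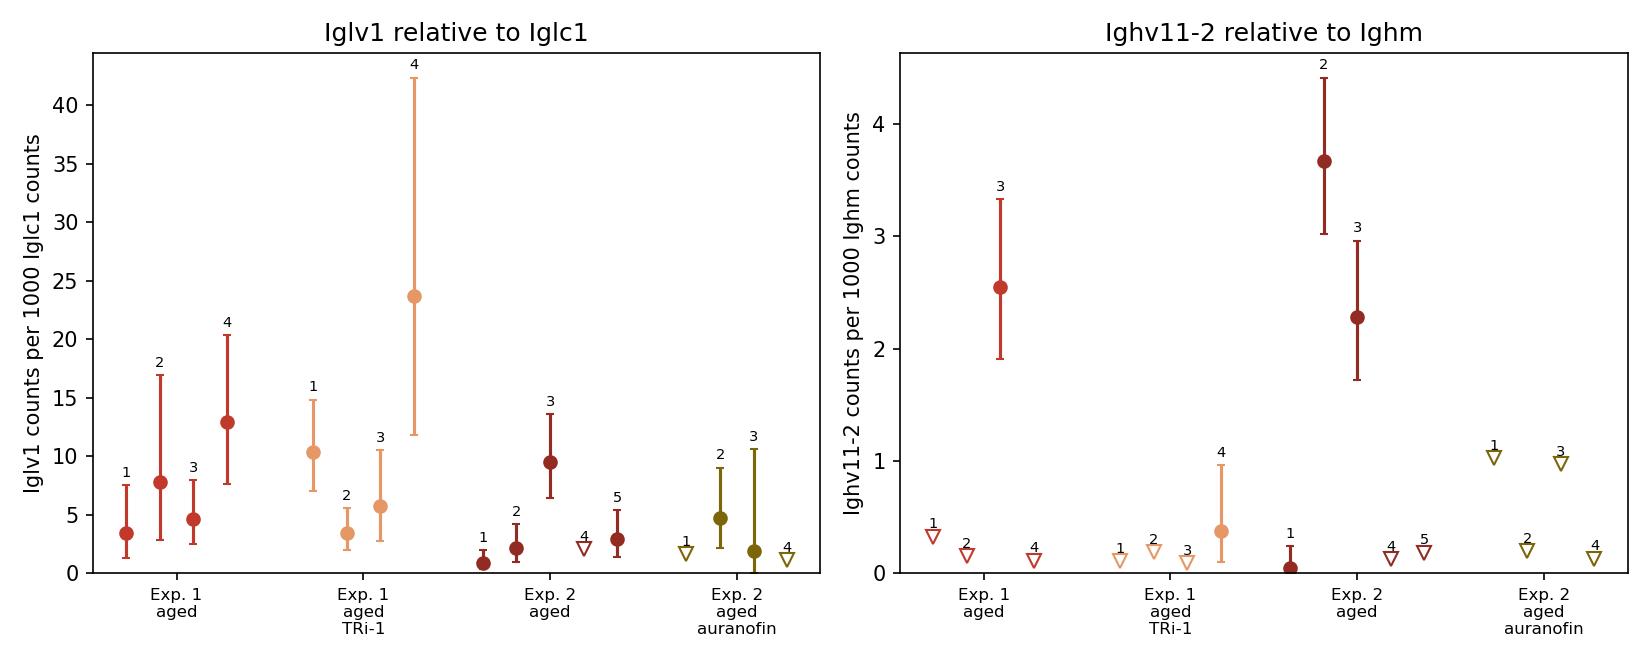
Iglv1 counts per 1000 Iglc1 counts (left) and Ighv11-2 counts per 1000 Ighm counts (right) in aged untreated and treated libraries, numbered by replicate. Filled points carry 95% Poisson intervals and open triangles mark the highest value that a count of 0 allows; Iglv1 groups overlap, and 3 libraries, from 2.28 to 3.67, stand above the rest for Ighv11-2.

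Young libraries had few immunoglobulin counts for these ratios. In experiment 1 they had 206 Iglc1 counts in all, and 0 Iglv1 counts beside them allow up to 14.6 per 1000, above all 4 aged libraries. In experiment 2, 3 Iglv1 counts over 408 Iglc1 counts gave 7.35 per 1000 as a sum (interval 1.52 to 21.5). As means over libraries, the values were 3.68 ± 8.23 in young and 3.10 ± 3.77 in aged ovaries (SD, n = 5 each). For Ighv11-2, 0 counts beside 530 and 770 Ighm counts in young libraries of experiments 1 and 2 allow up to 5.66 and 3.90 per 1000, above every aged library. A difference with age in either member relative to its constant region gene was not detectable at this depth.

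Per locus, lambda V genes gave more counts relative to their constant regions than the other loci. Over all V genes and libraries there were 4.32 lambda V counts per 1000 lambda constant counts, 0.758 heavy chain V counts per 1000 heavy chain constant counts and 0.283 kappa V counts per 1000 Igkc counts. The lambda value was 15.3 times the kappa value. As a share of light chain V counts, lambda made 35.5% in aged ovaries of experiment 1 (50 of 141, 95% exact binomial interval 27.6 to 44.0), and lambda constant genes made 2.24% of light chain constant counts in the same libraries.

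The lambda share of light chain V counts was 43.3% in TRi-1 ovaries (87 of 201, interval 36.3 to 50.4) and 50.8% in aged ovaries of experiment 2 (90 of 177, interval 43.2 to 58.4), beside lambda shares of the constant counts of 4.95% and 5.40%. It was 10.99% in auranofin ovaries (10 of 91, interval 5.40 to 19.3) beside 2.73%. That last value rested on single libraries: it was 1.33% without auranofin replicate 2, then below the constant share of 2.00%, and 58.8% without replicate 4, beside 8.28%. In aged ovaries of both experiments and in TRi-1 ovaries, lambda took a larger share of the V counts than of the constant counts, also with any 1 library left out, while the difference between groups was not tested.

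**Figure D4:**
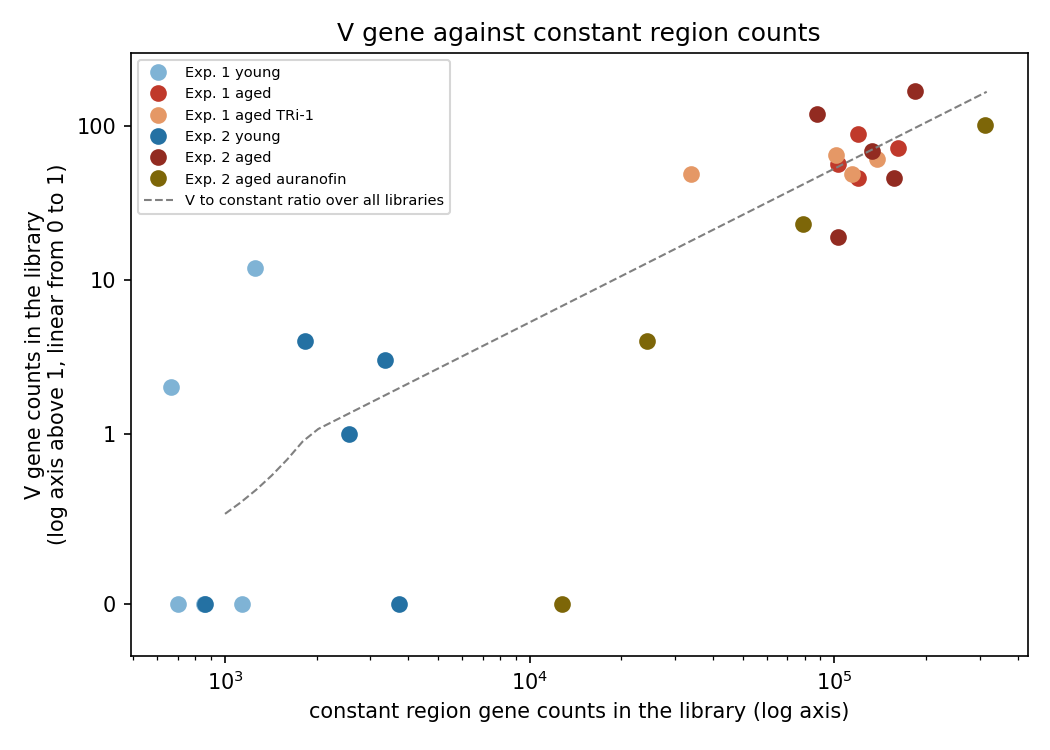
Counts of all V genes against counts of all constant region genes in each library, on log axes with the part from 0 to 1 linear on the vertical axis; the dashed line is the ratio over all libraries. Untreated aged and TRi-1 libraries lie above all young ones on both axes, with the lowest at 19 V counts in aged replicate 1 of experiment 2. Auranofin libraries are spread, and young libraries lie at the lower left with 0 to 12 V counts. Libraries above the line include TRi-1 replicate 4, with 49 V counts beside 33826 constant region counts. Aged replicate 3 of experiment 2, with 120 beside 87434, is also above it.

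The first comparison asked how V gene levels differed between aged and young ovaries. Both members entered the set through aged libraries, since their young counts sum to 3, so a higher level with age was built into the choice. The values describe its size. Exact permutation tests of CPM with age were also run for both members, and nothing is read from them. For Iglv1 in experiment 1, the summed counts were at least 12.7-fold higher in aged than young ovaries, taking a floor of 3 counts over the young group. In experiment 2 the ratio was 13.9 (95% counting interval 4.50 to 69.4), from 54 against 3 counts. Ighv11-2 had 53 and 169 counts in aged ovaries of experiments 1 and 2 against 0 in young ones. All of the 53 and 112 of the 169 were in 1 library, and the groups overlapped in both experiments.

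In edgeR's quasi-likelihood fit of experiment 1, Iglv1 was the 1 member that passed the filter on low counts. Its estimate with age was 6.23 ± 1.18 on the log2 scale (SE), and it was among the 18.5% of the 16028 genes tested that were called higher. Since the choice of members built in that direction, nothing is read from the call. A fitted value against a group at 0 depends on the prior count and is no bound. The estimate lay between 5.93 and 6.40 when single libraries were left out.

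Neither member passed the filter in the fit of experiment 2. In 1 fit of all 27 libraries, Iglv1 had an age estimate in experiment 2 of 3.62 ± 1.26 on the log2 scale (SE), outside the 7% of 17484 genes called higher. The means of 0.886 and 0.0583 CPM differed by 0.828 CPM, and by 0.413 CPM without aged replicate 3. Without the filter on low counts, edgeR also called Ighv11-2 in experiment 1, where 10.8% of 26109 genes were called higher, although 3 of the 4 aged libraries had 0 counts.

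The difference between the age effects of the experiments was 2.80 ± 1.89 on the log2 scale for Iglv1 (SE; edgeR adjusted p = 0.585), and 0.21 without young replicate 4 of experiment 2. In that test 0 genes, or 0% of 17484, were called in either direction by edgeR, with 2067 at an unadjusted p under 0.05, while DESeq2 called 69 higher and 85 lower. Ighv11-2 did not pass the filter on low counts in that fit.

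The next comparison asked whether TRi-1 changed V gene levels in aged ovaries. Iglv1 had 68 counts in the 4 TRi-1 libraries and 43 in the 4 aged ones, a ratio of 1.61 (counting interval 1.08 to 2.41), but the libraries overlapped. The edgeR estimate was 0.72 ± 0.75 on the log2 scale (SE; adjusted p = 0.685), not called beside 0.418% of genes called in either direction. That share came from 28 genes higher and 39 lower, while DESeq2 called 266 and 332 and edgeR with the replicate number as a block 1 and 0. Without single libraries edgeR called from 0 in either direction (without aged replicate 3 or TRi-1 replicate 1 or 4) to 53 and 111 (without aged replicate 2), and Iglv1 was called in none of these fits. In an exact two-sided permutation test of CPM, p was 0.229 (adjusted over the 10 such tests run, 0.397), and a design of 4 against 4 cannot go below 0.0286. Relative to Iglc1 the means were 10.8 ± 9.04 in TRi-1 and 7.18 ± 4.21 in aged ovaries (SD, n = 4 each; exact permutation p = 0.600), and without TRi-1 replicate 4 the difference turned to -0.659 per 1000.

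Untreated aged libraries supplied 222 of the 226 Ighv11-2 counts. A lower level in treated than in untreated aged ovaries was thus also built into its choice. Permutation tests of Ighv11-2 under both treatments are among the 10 run, and nothing is read from them. Ighv11-2 had 4 counts in TRi-1 ovaries against 53 in aged ones, all 53 of them in aged replicate 3. Without that library the difference changed its direction, to 0.109 CPM higher in TRi-1 ovaries.

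Auranofin was compared with the aged ovaries of experiment 2 in the same way. Iglv1 had 10 counts in auranofin and 54 in aged libraries, a ratio of 0.222 (counting interval 0.101 to 0.440). In the fit of all 27 libraries the estimate was -2.28 ± 1.21 on the log2 scale (SE; edgeR adjusted p = 0.584), not called beside 0.0572% of genes called in either direction. The exact permutation p was 0.143 (adjusted 0.397). Relative to Iglc1 the means were 1.66 ± 2.24 in auranofin (SD, n = 4) and 3.10 ± 3.77 in aged ovaries (SD, n = 5; exact permutation p = 0.603), and without aged replicate 3 the difference turned to 0.172 per 1000.

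Ighv11-2 had 0 counts in the 4 auranofin libraries and 169 in the 5 aged ones, of which replicate 2 held 112. Of the aged libraries 2 also had 0 counts. The difference between the treatment effects, TRi-1 minus auranofin, was 3.03 ± 1.67 on the log2 scale for Iglv1 (SE; edgeR adjusted p = 0.521), with 0.0172% of 17484 genes called, and Ighv11-2 was not tested there. The Iglv1 value was 5.22 without auranofin replicate 2 and 2.14 without aged replicate 3 of experiment 2, not called in either. In that test edgeR called 0 genes higher and 3 lower, and DESeq2 52 and 48. The treatments were given in different experiments, each against its own aged group.

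Constant region genes, which form the 3′ part of spliced immunoglobulin mRNAs, were counted far more deeply than V genes. Of 12 listed genes, 11 were tested, and 10 rose and 0 fell with age in experiment 1, beside 18.5% of all genes called higher and 16.4% lower. Their median log2 fold change was 4.90, beside 0.02 over all genes. Iglc1 rose by 4.89 ± 0.58 and Ighm by 6.996 ± 0.57 on the log2 scale (SE; edgeR adjusted p = 1.85e-05 and 1.87e-06). Igha, the constant region of IgA, did not pass (1.40 ± 0.69, SE; edgeR adjusted p = 0.129).

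In experiment 2, 9 of the 11 rose with age and 0 fell, with a median of 5.23 beside -0.03 over all genes, and 5.86% of 16309 genes were called higher and 4.59% lower in that fit. Iglc1 rose by 5.03 ± 0.56 and Ighm by 6.91 ± 0.59 on the log2 scale (SE; edgeR adjusted p = 0.000115 and 3.03e-05). Igha (2.01 ± 0.70) and Ighd, the constant region of IgD (2.93 ± 0.99), did not pass. Under TRi-1, edgeR called 0 of 11, where 0.418% of genes were called in either direction, and DESeq2 called 0. Of the 11, 1 had an unadjusted p under 0.05 in edgeR, beside 2650 of all 16028 genes. Under auranofin, edgeR called 0 of 11, where 0.0184% of genes were called in either direction, and DESeq2 called 0. Here 3 of the 11 had an unadjusted p under 0.05, beside 1148 of all 16309 genes. Over all genes, DESeq2 called 266 higher and 332 lower under TRi-1, and 40 and 36 under auranofin. The 3 under auranofin were Ighg1, Ighm and Iglc1, and their estimates were -3.45 ± 1.54, -1.20 ± 0.49 and -1.13 ± 0.51 on the log2 scale (SE). In each test of a difference between effects, edgeR and DESeq2 called 0 of 11, with 1 at an unadjusted p under 0.05. Of all 17484 genes, 2067 had such a p in the edgeR test for age and 1900 in that for treatment.

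A list of 30 genes that recombine, switch on or assemble V genes and their products held 15 that were tested for age. In experiment 1, 8 rose and 0 fell, beside 18.5% of all genes called higher, and the median log2 fold change of the 15 was 1.61, beside 0.02 over all genes. Among them, Pou2af1, the B cell coactivator that binds octamer factors at immunoglobulin promoters, rose by 5.66 ± 0.52, and Pou2f2, the octamer factor Oct-2, by 1.12 ± 0.35 on the log2 scale (SE; edgeR adjusted p = 3.30e-06 and 0.0221). Pou2f1, the widely expressed factor Oct-1, did not pass (-0.46 ± 0.24, SE). Cd79a and Cd79b, the signalling chains of the B cell receptor, rose by 4.64 ± 0.52 and 3.97 ± 0.50 on the log2 scale (SE).

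Factors of antibody-secreting cells were also among those called. Jchain, which links IgM and IgA into polymers, rose by 5.52 ± 0.36, and Mzb1, which aids antibody assembly, by 6.81 ± 0.50 on the log2 scale (SE; edgeR adjusted p = 2.90e-07 and 8.83e-07). Irf4 rose by 2.12 ± 0.49 and Prdm1 by 1.32 ± 0.43, both transcription factors of plasma cells, while Xbp1, another, did not pass (0.46 ± 0.35, SE). In experiment 2, 7 of the 15 rose and 0 fell, beside 5.86% of all genes called higher: Pou2af1, Pou2f2, Cd79a, Cd79b, Jchain, Mzb1 and Irf4. Prdm1 stood at -0.31 ± 0.53 there (SE; edgeR adjusted p = 0.793), and the difference between the experiments for it was 1.61 ± 0.71 (SE; edgeR adjusted p = 0.366).

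Rag2, which makes part of the enzyme of V recombination, the surrogate light chain gene Vpreb2 and 8 of the listed J segments had 0 counts in all libraries. Under TRi-1, edgeR and DESeq2 called 0 of the 15 factors. In edgeR, 0 of them had an unadjusted p under 0.05, beside 2650 of all 16028 genes. Under auranofin, edgeR and DESeq2 also called 0 of the 15. Here 4 had an unadjusted p under 0.05 in edgeR, beside 1148 of all 16309 genes. Totals called over all genes are given above. In the tests of a difference between effects, 17 factors were tested and edgeR and DESeq2 called 0 in each. An unadjusted p under 0.05 was given to 1 factor for age and 2 for treatment, beside 2067 and 1900 of all 17484 genes.

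Markers of the cells that make antibodies, of other blood cells and of the ovary itself changed with age. Of all genes, 18.5% were called higher and 16.4% lower in experiment 1, and 5.86% and 4.59% in experiment 2. The marker lists share genes with the list of factors above, so the tallies are not separate. Cd79a, Cd79b and Pax5 are also B cell markers, and Jchain, Mzb1, Xbp1, Prdm1, Irf4 and Pou2af1 are also plasma cell markers. Fcer2a is in both the B cell and the lymph node list. Of 10 B cell markers, 8 rose and 0 fell in experiment 1 and 6 rose and 0 fell in experiment 2. Of 10 plasma cell markers, 7 rose and 1 fell in experiment 1, and 5 rose and 0 fell in experiment 2. Of 8 T cell markers, 8 and 7 rose. All 6 macrophage markers rose in both experiments, and of 5 red cell markers, 5 rose in experiment 1 and 1 in experiment 2. Of 8 ovary markers tested, 0 rose in either experiment, and 6 fell in experiment 1 and 4 in experiment 2. Of 4 lymph node markers tested, 2 and 1 rose.

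All 10 B cell markers had counts, and their summed level ran from 8.21 to 15.3 CPM in young and from 75.7 to 292.9 CPM in aged ovaries of experiment 1, and from 9.51 to 25.2 and from 69.6 to 280.1 CPM in experiment 2. The 10 plasma cell markers, also all with counts, ran from 89.0 to 116.7 and from 773.0 to 874.6 CPM in experiment 1, and from 77.5 to 164.9 and from 632.5 to 983.7 CPM in experiment 2. The 8 T cell markers, all with counts, ran from 11.4 to 17.4 and from 62.8 to 228.9 CPM in experiment 1, and from 8.83 to 24.0 and from 48.1 to 155.9 CPM in experiment 2. The 5 lymph node markers, all with counts, ran from 196.1 to 364.6 and from 416.2 to 612.8 CPM in experiment 1, and overlapped in experiment 2, at 159.9 to 315.1 and 227.9 to 363.4 CPM. Macrophage markers ran from 282.0 to 592.5 and from 1603.8 to 3975.7 CPM in experiment 1, and from 271.7 to 782.6 and from 1416.6 to 2681.8 CPM in experiment 2. Red cell markers ran from 18399.8 to 90284.2 and from 108983.9 to 283354.5 CPM in experiment 1, and overlapped in experiment 2, at 2413.0 to 48900.7 and 11189.0 to 47438.4 CPM. Ovary markers overlapped in both, at 527.2 to 1840.6 in young and 189.1 to 1020.8 CPM in aged ovaries of experiment 1, and at 58.1 to 2117.2 and 88.6 to 838.1 CPM in experiment 2. All macrophage, red cell and ovary markers had counts. The part of these cells in the V gene values was not tested.

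In treated ovaries, B cell markers ran from 64.8 to 205.2 CPM with TRi-1 and from 10.3 to 126.5 CPM with auranofin, and plasma cell markers from 411.6 to 1071.6 and from 208.3 to 1030.8 CPM. Neither edgeR nor DESeq2 called any of them under treatment. Under auranofin, 5 of 10 B cell markers had an unadjusted p under 0.05 (median log2 fold change -1.78), and 1 of 10 plasma cell markers (-0.54). Of all 16309 genes, 1148 had such a p. Under TRi-1 it was 0 of 10 in both lists (-0.28 and -0.02), beside 2650 of 16028 genes. The 2 auranofin libraries with the lowest B cell markers, replicates 1 and 3 at 16.2 and 10.3 CPM, had 0 and 4 V gene counts in all. Auranofin replicate 4, at 126.5 CPM, had 102 V counts, none of them on a member. Among aged libraries, the 3 with high Ighv11-2 had B cell markers at 75.7, 81.0 and 117.4 CPM, in the lower part of the aged range. Their plasma cell markers stood at 773.0, 983.7 and 806.1 CPM, and 983.7 CPM was the highest of the untreated aged libraries.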

How the data were processed

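Libraries of ovary polyA RNA were made by QuantSeq (Lexogen), per the labels' protocols. The authors deposited whole-number counts per gene, unscaled. RSEM 1.2.3, DESeq2 and the mm10 build are named, without a role, per the submitters' processing notes. The gene annotation, strand of counting and handling of multiply mapped reads are not given in the sources used here. Of 51789 gene IDs, 51596 received a symbol from GENCODE M21 (GRCm38). The members and gene lists were chosen with earlier results of these data known. Replicates are separate mice only as far as the labels say, so p-values measure the spread between these libraries.

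Counts were fitted in R 4.3.3 with edgeR 4.0.16 (TMM, filterByExpr, quasi-likelihood tests, Benjamini-Hochberg adjusted p over all genes tested, threshold 0.05). Each experiment had its own fit of 13 or 14 libraries, and differences of effects came from 1 fit of 27. Each SE is |log2 fold change| over √F. Exact permutation tests used scipy 1.17.1. The 10 tests adjusted together include those of both members with age and of Ighv11-2 under treatment. The edgeR tests were also run on simulated counts with 200 genes changed and the same spread for every gene. That setting does not copy counts held by few libraries, as for Ighv11-2, so nothing is read from it for the members. Library totals ran from 6460903 to 14814381 counts; no library was a copy of another in its group. The filter removed both members in experiment 2, so the Iglv1 estimates there come from the fit of 27 libraries. Ighv11-2 was also removed in that fit.

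Named V genes were those with the largest totals per locus, those leading a library with at least 100 V counts, and those next to the count minimum. Ighv11-1, Igkv14-126, Iglv2, Iglv3, Igkv3-4 and Igkv12-44 were named after their values were seen. Alternatives were RLE size factors, DESeq2 1.42.0, no filter or 5 CPM, a replicate block, another count minimum, V pseudogenes added and each library left out in turn. Added after seeing the data were the permutation tests, the ratio to Iglc1 plus Iglc3, and sums, leading shares and lambda shares over all V genes. Figures were drawn with matplotlib 3.10.9.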

Additional observations from a re-analysis of the deposited data

Results flagged for a closer look

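Values that stood apart from the rest of their group were looked for in 38 groups of 4 or 5 libraries, by the gap to the nearest library over the range of the group, and 15 were found. Of these, 12 were the 1 library with a count in a group otherwise at 0, which stands apart by construction. The chance rate of about 1 in 20 groups holds for continuous values and not for such sparse counts, so nothing is read from the number found.

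For Ighv11-2, aged replicate 3 of experiment 1 stood apart at 4.96 CPM and 2.55 per 1000 Ighm counts, and TRi-1 replicate 4 at 0.434 CPM and 0.375 per 1000 Ighm counts, each in a group otherwise at 0. For Iglv1, young replicate 4 of experiment 2 stood apart at 0.291 CPM and 18.4 per 1000 Iglc1 counts, on 3 counts, and auranofin replicate 2 at 0.576 CPM. Young replicate 3 of experiment 1 had 12 V gene counts of any kind, the most of a young library.

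Among single genes, Ighv11-1 had 15 counts in aged replicate 2 of experiment 2. Igkv14-126 had 6 counts in aged replicate 3 of experiment 1 and 5 counts in aged replicate 2 of experiment 2. Igkv3-2 had 7 counts in aged replicate 3 of experiment 2 and 2 counts in auranofin replicate 4. Ighv9-1 had 7 counts in aged replicate 4 of experiment 2 and 14 counts in auranofin replicate 4.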

How the results depend on the processing

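The higher Iglv1 level with age in experiment 1 was built into the choice of members, so its call is no finding. It was also made under RLE size factors, DESeq2, no filter, 1 fit of 27 libraries, the replicate block (6.31 on the log2 scale) and each library left out. The difference of the treatment effects for Iglv1 (3.03) ran from 2.14 without aged replicate 3 of experiment 2 to 5.22 without auranofin replicate 2. Of 25 same-numbered pairs of libraries, 6 correlated above 0.1, and all ran from -0.246 to 0.433. No rate for differently numbered pairs was set beside this, so it cannot decide whether the replicate numbers pair the libraries. The block changed no call of a member. Without the filter, 2 V genes in place of 1 were called with age in experiment 1. A mean of at least 5 CPM left no member tested, a minimum of 200 counts left only Ighv11-2, which had no main call, and pseudogenes added no member; the effective number of V genes was not run with 2 members.

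With a minimum of 200 counts, the TRi-1 mean fell to 0.109 CPM summed and 0.00296 V counts per 100 constant region counts. Over all V genes, the summed level was 0.506 CPM in young, 6.46 in aged and 5.63 in TRi-1 ovaries of experiment 1, and 2.58 in auranofin ovaries. V counts of all V genes per 100 constant region counts were 0.251, 0.0531 and 0.0741 in young, aged and TRi-1 ovaries of experiment 1, where the young value was 0.0750 without replicate 3, and 0.0693, 0.0657 and 0.0196 in young, aged and auranofin ovaries of experiment 2. Kappa V counts per 100 Igkc counts were 0.482 and 0.0648 in young and TRi-1 ovaries of experiment 1, and 0.132 and 0.0111 in young and auranofin ovaries of experiment 2. Within the locus of the leading gene, its share was 78.9% and 90.3% in aged replicates 2 and 3 of experiment 2 and 43.2% in auranofin replicate 4. The lambda share in auranofin ovaries ran from 1.33 to 58.8% with single libraries left out.

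Differences that changed direction when 1 library was left out were Iglv1 per 1000 Iglc1 under TRi-1 (-0.659 to 6.08, low without TRi-1 replicate 4) and under auranofin (-2.46 to 0.172, high without aged replicate 3). Ighv11-2 in CPM under TRi-1 ran from -1.54 to 0.109, high without aged replicate 3. The cause was not tested.

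With 404 counts on 2 genes, 0 to 30 per library for Iglv1, the depth limits every statement on single libraries.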
